A study of Mus musculus with 12 samples.

Results

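The 6 libraries of young cells, out of 12 in the series, gave a map of pseudouridine in the transfer RNAs (tRNAs) of young blood-forming cells. The cells were hematopoietic stem and progenitor cells of wild-type mice, the mixed bone marrow population from which all blood lineages arise. All 6 libraries were made from small RNA that was demethylated by AlkB, in its wild-type form and as a mutant, which strips methyl groups that block reverse transcriptase, and that was kept in sodium carbonate at the end. They differed in the buffer: 3 libraries were kept in BEU buffer alone, and 3 in BEU buffer with CMC, a carbodiimide. An age in weeks or months, the sort used for the cells and the number of animals were not given in the sources used here. Nothing in the labels says that replicates came from separate animals, so a p-value here reflects how far these 6 libraries vary, possibly for technical reasons alone.

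Members were the bases of tRNA entries covered by at least 20 reads in all 6 libraries. The 404 entries held 213 distinct sets of values, and entries with identical values were counted once. Of 14012 rows with a base in the 213 distinct tRNAs, 10599 (75.6%) reached that coverage, in 191 tRNAs. They comprised 2304 T, 1989 A, 3149 C and 3157 G rows. The stop rate of a base is the percent of its covering reads whose copy stopped at it.

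Pseudouridine is an isomer of uridine, written as T in these sequences, and is made in place by pseudouridine synthases. CMC bound to it is known to survive carbonate, which removes CMC from other bases, and to halt reverse transcriptase, so a stop that rises with CMC at a T marks a candidate pseudouridine. In the cytosolic tRNAs of mammals PUS1 is known to act at positions 27 and 28 of the anticodon stem, PUS3 at positions 38 and 39 below the anticodon, PUS7 at positions 13 and 35, TRUB1 at position 55 of the T loop, and PUS10 at positions 54 and 55. The T loop and the D loop fold together at the elbow of the tRNA, where the base at position 55 stabilises the fold.

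The sequences of 6 whole tRNAs show where the called stops lay. Chosen were tRNAs with the most called sites, tRNAs with sites outside the usual positions, and an initiator tRNA with no called site. Capitals mark every T called as CMC-dependent, and all other bases are in lower case, 5′ to 3′, as the deposited rows give them (the rows end at the second base of the terminal CCA).
tRNA-Gln-CTG-1-1: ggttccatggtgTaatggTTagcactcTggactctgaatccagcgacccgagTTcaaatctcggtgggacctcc
tRNA-Arg-TCT-1-1: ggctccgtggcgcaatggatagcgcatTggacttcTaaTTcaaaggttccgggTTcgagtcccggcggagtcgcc
tRNA-Cys-GCA-2-1: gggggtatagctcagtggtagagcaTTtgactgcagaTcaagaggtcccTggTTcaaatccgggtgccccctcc
tRNA-Leu-TAG-3-1: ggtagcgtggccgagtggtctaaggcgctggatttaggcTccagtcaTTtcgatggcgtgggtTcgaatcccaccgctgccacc
tRNA-Ser-GCT-3-1: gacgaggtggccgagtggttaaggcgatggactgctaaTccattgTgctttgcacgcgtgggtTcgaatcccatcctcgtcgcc
tRNA-iMet-CAT-1-1: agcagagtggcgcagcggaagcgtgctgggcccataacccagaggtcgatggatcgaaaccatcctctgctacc

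Anticodon arms of 3 tRNAs show the stops around the anticodon, at bases 27 to 43 of the first and second and 28 to 44 of the third (the capitals mark positions 38 in Ala, 35 and 39 in Tyr, and 27 and 30 in Ile).
tRNA-Ala-AGC-6-1: ctcgcttagcaTgcgag
tRNA-Tyr-GTA-2-1: gaggactgTagaTcctt
tRNA-Ile-AAT-1-1: TggTgctaataacgcca

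T arms of 3 tRNAs, bases 48 to 64 of the first and second and 49 to 65 of the third, show the loop that carries positions 54 and 55. Both were called in Trp and Gln, and neither in Val. T55 of this Val tRNA still rose by a mean of 21.2 points with CMC, so lower case there does not mean an absence of stops.
tRNA-Trp-CCA-6-1: gcgtgTTcaaatcacgt
tRNA-Gln-TTG-5-1: ccaagTTcaaatctcgg
tRNA-Val-AAC-1-1: cccggttcgaaaccggg

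The libraries differed in depth. Highest coverage per tRNA, summed over the 213, was 814489, 713459 and 1032104 reads in BEU replicates 1 to 3, and 369011, 767650 and 201980 reads in CMC replicates 1 to 3. Coverage never exceeded 8015 reads at a base. Between 35 and 98 tRNAs per BEU library reached 7500 reads, against 10, 56 and 0 in CMC replicates 1, 2 and 3, so CMC replicate 2 stood apart from the other CMC libraries at the 3′ end of abundant tRNAs. Counts are therefore also given for rows below the ceiling, whose coverage, like that of each row further 5′, was under 7500 reads in all 6 libraries. Reads carry no molecular identifiers, so the SDs and SEs over libraries, and not counting error, are the errors given.

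A row was called CMC-dependent with a Benjamini-Hochberg adjusted p under 0.05 (edgeR's quasi-likelihood test on stop and read-through counts, adjusted over all 10599 rows), a mean rise of 10 percentage points or more, and every CMC library above every BEU library. By this rule the groups never overlap at a called row, so a statement of no overlap at such a row describes it and adds no evidence. Of the 10599 rows, 442 (4.17%) were called. They were 413 of 2304 T rows (17.9%) and 29 of 8295 A, C and G rows (0.35%). Below the ceiling 274 of 6422 rows (4.27%) were called, 253 of 1437 T rows (17.6%) and 21 of 4985 other rows (0.421%). The mirrored rule, lower with CMC in all libraries, took 21 of 10599 rows (0.198%). CMC libraries lay above all BEU libraries, without any minimum rise, at 3699 rows (34.9%), and at 1201 T rows (52.1%).

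The called T rows rose by a median of 28.9 points, with quartiles at 19.4 and 42.9 points and a highest rise of 83.1 points. The median SE of a rise was 2.14 points. Without CMC these T rows hardly stopped the enzyme: their median BEU stop rate was 1.07%, and 386 of 413 lay under 5%. Of 218 rows with a rise of at least 30 points, 98.2% lay on T, against 48.6% when the rows were moved 1 base 5′ and 20.6% when moved 1 base 3′. At A, C and G rows beside a called T the median rise was 2.40 points on the 5′ side and 1.62 points on the 3′ side, against 0.510 points over all A, C and G rows.

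**Figure D1:**
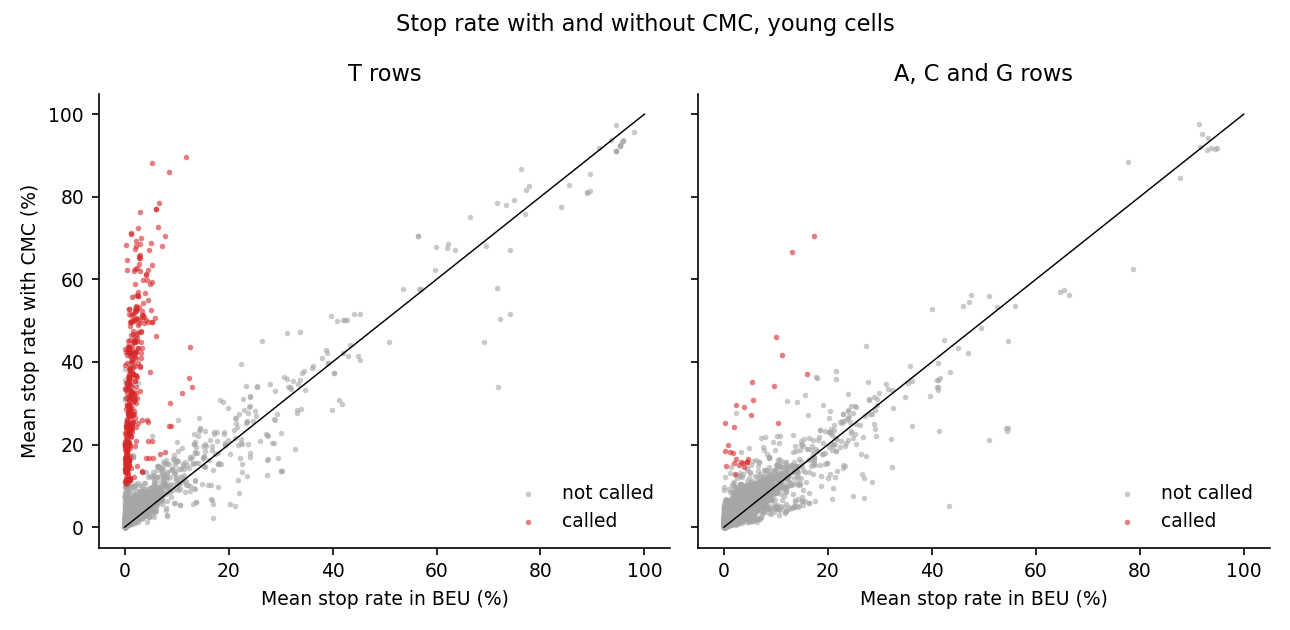
Mean stop rate without CMC (horizontal axis, percent, BEU) and with CMC (vertical axis, percent) for T rows (left) and for A, C and G rows (right), 1 point per row; red points were called and the line marks equal rates. The called T rows form a column at low BEU rates, and 413 of 2304 T rows against 29 of 8295 other rows were called.

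The called T rows were gathered at few positions of the tRNA. Positions 13, 27, 28, 38, 39, 54 and 55 together held 591 T rows, of which 352 were called, or 85.2% of the 413. The other 1713 T rows held 61. Counting each anticodon and position once, the 413 sites came down to 164 combinations. Position 33, the T that precedes the anticodon in nearly all tRNAs, served as an internal comparison. The median rise of its 136 rows was 1.34 points and the highest 5.63 points. None of these rows reached the minimum rise of 10 points, so none could be called with edgeR, DESeq2 or limma, whatever its p-value. At an unadjusted p under 0.05 (edgeR's quasi-likelihood test) 59 of them passed, and 13 passed the adjusted p. The 79 T rows at position 8, the 24 at position 26 and the 65 at position 16 held no row called by the rule either. In edgeR's test 15, 8 and 16 of them had an unadjusted p under 0.05, and 3, 1 and 2 an adjusted p under 0.05. None of those passing the adjusted p rose by 10 points, and the 2 at position 16 were lower with CMC. In the last 14 rows of the tRNAs none of 339 T rows was called by the rule. In edgeR's test 39 of these had an unadjusted p under 0.05 and 10 an adjusted p under 0.05. The highest rise there was 2.54 points and the highest mean CMC stop rate 3.64%, so stops were hardly recorded near the 3′ end.

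**Figure D2:**
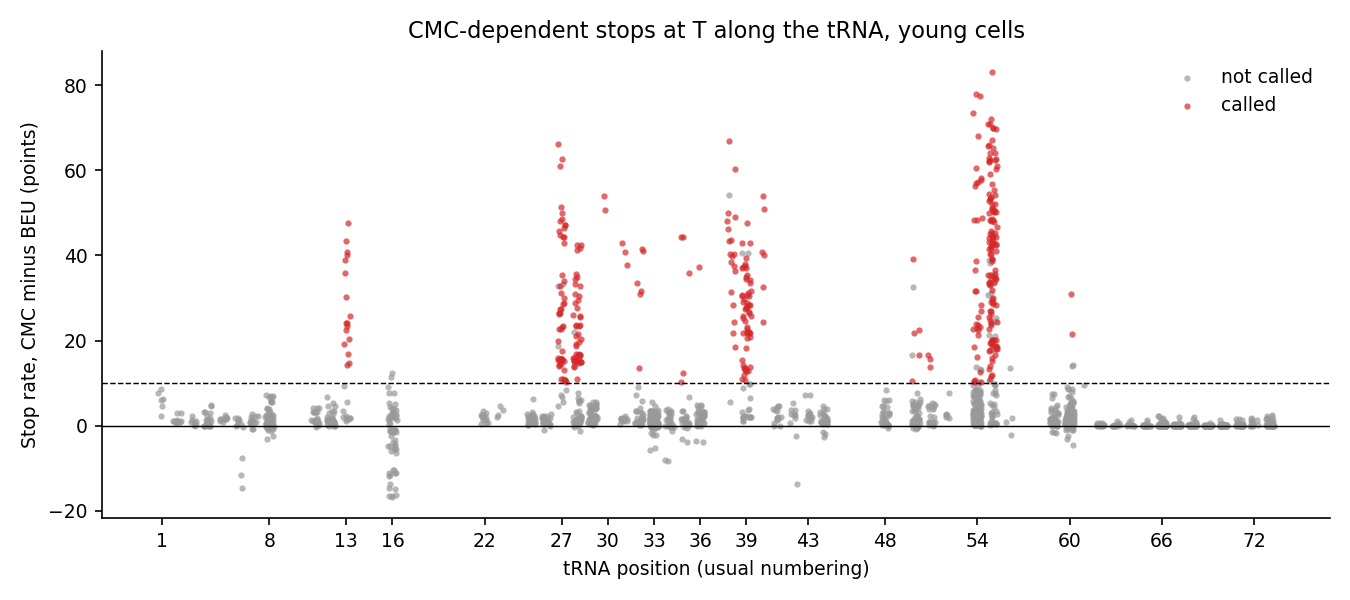
Rise in stop rate with CMC (vertical axis, percentage points) at each numbered T row against tRNA position (horizontal axis, usual numbering), 1 point per row with sideways scatter for visibility; the dashed line marks 10 points. The called rows (red) stand in columns at 13, 27, 28, 38, 39, 54 and 55, while the 136 rows at position 33 have a median rise of 1.34 points.

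**Figure D3:**
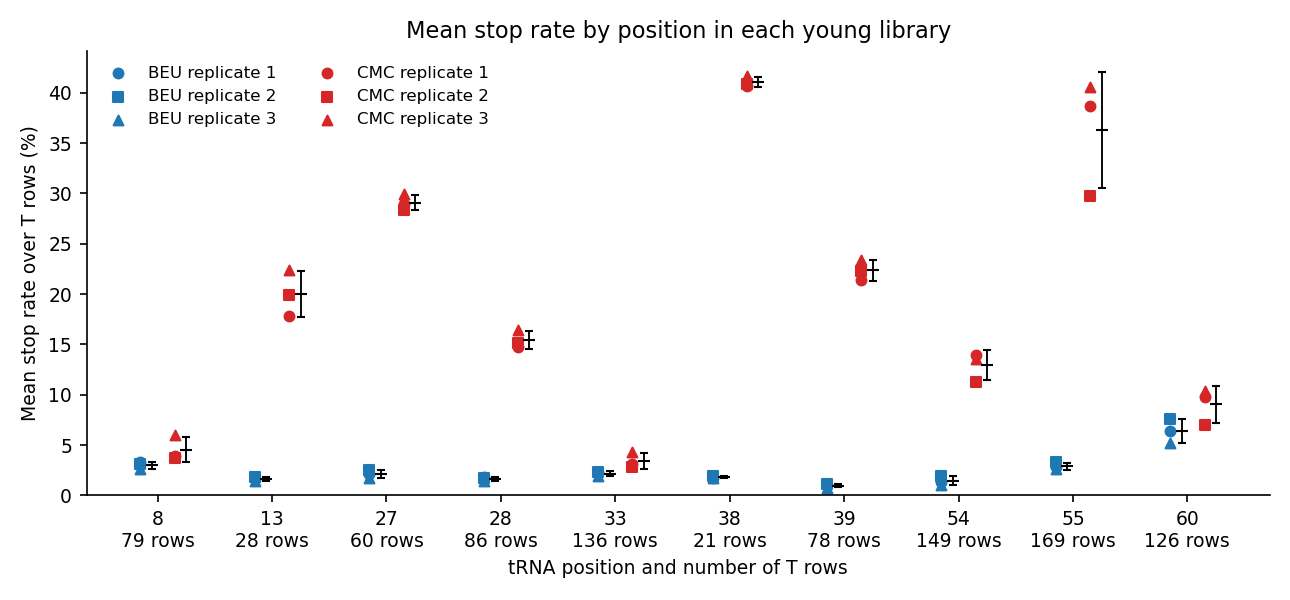
Mean stop rate over the T rows of 10 positions (vertical axis, percent) in each of the 3 BEU (blue) and 3 CMC (red) libraries, with the mean and SD over 3 libraries in black beside them. At position 38 the CMC libraries lie at 40.7, 40.9 and 41.7%; at position 55 CMC replicate 2 lies at 29.7%, under replicates 1 and 3 at 38.7 and 40.6%.

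Position 55 of the T loop, the base that TRUB1 and PUS10 modify, had the most called rows: 125 of 169, and 64 of 81 below the ceiling. Over the 169 rows the mean stop rate was 2.79, 3.30 and 2.61% in the BEU libraries and 38.7, 29.7 and 40.6% in the CMC libraries. Every CMC library lay far above every BEU library, and CMC replicate 2 was the lowest of the CMC libraries. Below the ceiling the CMC libraries lay closer together, at 39.003, 34.9 and 41.2%. Without CMC replicate 2 the same fit called 142 rows at position 55.

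All covered T55 rows for Leu (16 of 16), Trp (6 of 6), Tyr (4 of 4) and elongator Met (3 of 3) were called at position 55, and 16 of 17 for Arg. The largest rise was at tRNA-Leu-CAG-4-1, with 4.04, 6.46 and 5.05% in the BEU libraries and 88.7, 88.2 and 87.9% in the CMC libraries. Most reads that reached this base ended there in each CMC library, and few did without CMC. The rise was 83.1 ± 0.734 points (SE of the difference, n = 3 and 3; edgeR's quasi-likelihood test, adjusted p = 7.45e-05). tRNA-Lys-CTT-1-1, with mean coverage of 144 reads, stopped at 1.45, 6.85 and 3.46% in the BEU libraries and 54.3, 54.2 and 61.5% in the CMC libraries, a rise of 52.8 ± 2.88 points.

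The base next to T55 on the 3′ side was C in 165 rows, of which 125 were called, and T in 4 rows, none of which was called (median rise 1.82 points). Calls at T55 also occurred without T54. In 5 tRNA-Ala-AGC species with the loop gatcgatgc, which has A at position 54, all 5 rows at position 55 were called, with rises of 18.1 to 55.4 points. The 3 initiator tRNAs (tRNA-iMet), which start translation and carry the loop gatcgaaac, held no called row among 33 T rows, of which 2 had an unadjusted p under 0.05 in edgeR's test. At their position 55 tRNA-iMet-CAT-1-1 stopped at 0.642, 0.402 and 0.805% in the BEU libraries and 7.99, 0.843 and 8.67% in the CMC libraries, with CMC replicate 2 just above the BEU libraries. tRNA-iMet-CAT-3-1 stopped at 12.2, 14.6 and 19.7% in the BEU libraries and 20.6, 28.8 and 20.3% in the CMC libraries, a rise of 7.74 ± 3.55 points on a high BEU level. The 3 iMet rows rose by a median of 5.22 points and did not pass the rule. Of the 33 T rows only 4 lay below the ceiling, and 0 of the 3 at position 55. A lack of calls in these tRNAs therefore does not show an absence of stops.

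Of the 44 rows at position 55 that were not called, 28 rose by less than 10 points (median 2.87). The other 16 rose by more and missed the adjusted p, and 15 of these reached the ceiling. At those 15 the CMC libraries differed: replicates 1 and 3 stopped at 27.6 to 59.8% and at 26.7 to 63.1%, while replicate 2 stopped at 0.0250 to 1.42%, as low as the BEU libraries. The 4 tRNA-Pro rows were of this kind. tRNA-Pro-AGG-1-1, for example, had 50.9, 0.239 and 51.8% in the CMC libraries and 0.643, 0.378 and 0.794% in the BEU libraries, so its groups overlapped. The highly covered tRNA-Asn-GTT-3-1, the tRNA of 9 identical entries, had 49.2, 0.150 and 51.5% and 0.02502, 0.02503 and 0.0125%.

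At position 54, which PUS10 is known to modify, 34 of 149 rows were called, and 21 of 74 below the ceiling. Mean stop rates over the 149 rows were 1.37, 1.92 and 1.06% in the BEU libraries and 13.98, 11.2 and 13.6% in the CMC libraries. The groups did not overlap, but most rows were low: the median rise was 4.47 points. Without CMC replicate 2 the fit called 43 rows. Among 149 tRNAs with T at both positions, 33 were called at both, 80 at 55 alone, 1 at 54 alone and 35 at neither, and the rise at 55 was the higher in 130. A read that ends at position 55 never reaches 54, so the rate at 54 counts reads that had passed 55.

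Calls at position 54 are given here by the bases at positions 57 and 59 of the same loop. With A57, 23 of 43 rows at position 54 were called (median rise 13.2 points), and 12 of 21 below the ceiling. With G57, 11 of 106 were called (median rise 3.39 points), and 9 of 53 below the ceiling. In rows below the ceiling the mean CMC stop rates were 34.02, 32.2 and 33.3% with A57 and 10.6, 8.08 and 10.1% with G57, against BEU means of 2.49, 3.06 and 2.38% and of 1.69, 2.25 and 1.62%. At position 55 the counts with A57 and G57 were close, 36 of 47 and 89 of 122. The rises of single rows overlapped between A57 (0.150 to 77.9 points) and G57 (-0.00329 to 68.1 points). Most calls with A57 were in rows that also had A59, 21 of 34, against 1 of 4 with G59 and 1 of 5 with T59. With G57 they were 3 of 56 with A59, 3 of 7 with C59, 4 of 18 with G59 and 1 of 25 with T59. The difference between these groups was not tested, since rows of one tRNA family share reads and sequence.

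The loop gTTcaaatc, positions 53 to 61 with T54 and T55 in capitals, occurred in 34 tRNAs for Cys, Gln, Pro, Thr and Trp, of which 21 were called at 54 (median rise 22.9 points). The loop gTTcgaatc, which differs from it at position 57, occurred in 37 tRNAs, of which 2 were called (median rise 3.16 points). The first is the loop of the Trp and Gln T arms printed above, and Val carries gttcgaaac, the loop of 10 tRNAs with no call at 54 and 3 at 55. Among its uncalled T55 rows, tRNA-Val-AAC-1-1, tRNA-Val-AAC-5-1 and tRNA-Val-CAC-2-1 rose by 21.2, 21.4 and 17.8 points. They were among the uncalled ceiling rows described above, where CMC replicate 2 stood at the BEU level. The remaining uncalled rows rose by 0.419 to 7.68 points.

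By amino acid, all 6 tRNA-Trp rows and 8 of 9 tRNA-Gln rows were called at position 54, 7 of 17 for Arg and 5 of 13 for Cys. In tRNA-Gln-TTG-5-1 the stop rate was 12.9, 11.9 and 10.5% in the BEU libraries and 91.1, 86.7 and 91.1% in the CMC libraries. The CMC libraries were all above 86%, and the BEU libraries, at 10 to 13%, were among the highest of the called T rows. In tRNA-Trp-CCA-6-1 it was 4.16, 6.66 and 4.97% in the BEU libraries and 64.5, 64.6 and 61.1% in the CMC libraries, a rise of 58.2 ± 1.37 points (edgeR's quasi-likelihood test, adjusted p = 9e-05). The largest rise with G57 was at tRNA-Arg-ACG-3-1, 0.201, 0.175 and 0.351% in the BEU libraries and 71.7, 63.9 and 69.3% in the CMC libraries. Its 3 CMC libraries were all above 60%, so a high stop rate at T54 also occurred with G57. tRNA-Cys-GCA-2-1, with A57, stopped at 1.94, 2.66 and 0.289% in the BEU libraries and 24.9, 21.97 and 29.1% in the CMC libraries, well under its own position 55 at 73.1, 67.4 and 72.7% in the CMC libraries. No row at position 54 was called for Ser (11 rows), Gly (10), Val (10), Tyr (4) or elongator Met (3).

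**Figure D4:**
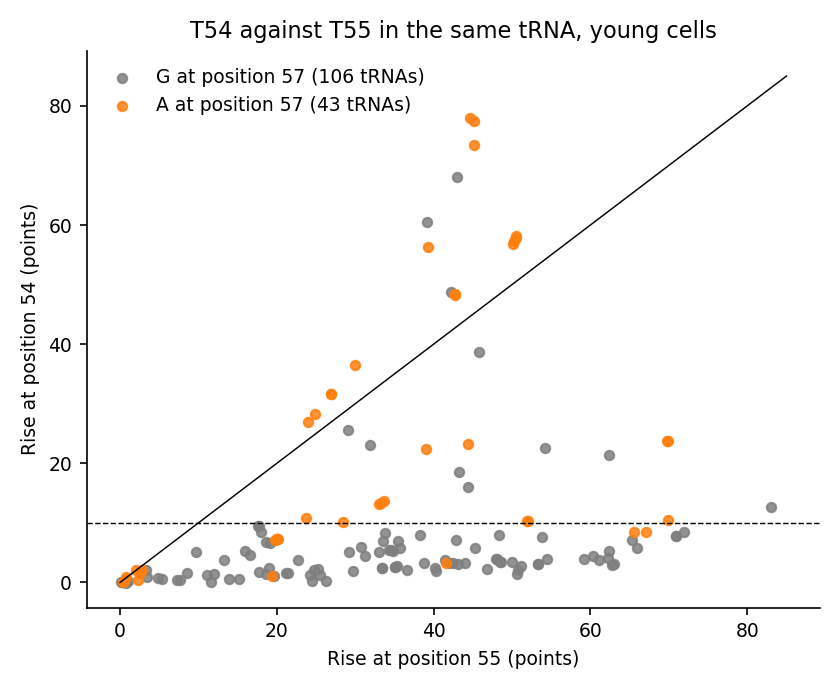
Rise with CMC at position 54 (vertical axis, points) against the rise at position 55 of the same tRNA (horizontal axis, points) for 149 tRNAs, coloured by the base at position 57; the line marks equal rises and the dashed line 10 points at position 54. Tall values at 54 are mostly tRNAs with A57 (23 of 43 called, against 11 of 106 with G57).

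The known PUS7 positions are 13, in the D stem, and 35, the middle base of the anticodon. At position 13, 17 of 28 rows were called (13 of 24 below the ceiling), with mean stop rates of 1.58, 1.81 and 1.46% in the BEU libraries and 17.8, 19.95 and 22.3% in the CMC libraries. The called rows belonged to Asp (2 of 3), Gln (3 of 3), Glu (4 of 6), Gly (2 of 2), His (1 of 1), Pro (3 of 5) and Val (2 of 2). None of 4 Arg rows (rises of 1.78 to 2.27 points) or 2 Thr rows was called. The base after T13 was A in all 28 rows. The base before it was G in 6 rows, all called, A in 5 rows with 4 called, C in 15 rows with 7 called, and T in 2 rows with none called.

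tRNA-Asp-GTC-1-1 had one of the tightest sites, with 2.52, 2.87 and 2.29% in the BEU libraries and 43.1, 43.2 and 44% in the CMC libraries at position 13. The CMC libraries spanned less than 1 point, far above BEU, and the rise was 40.9 ± 0.328 points (edgeR's quasi-likelihood test, adjusted p = 7.5e-05). tRNA-Gln-CTG-1-1 was more variable, with 15.9, 21.7 and 33.3% in the CMC libraries and 0.292, 0.110 and 0.176% in the BEU libraries. Its groups did not overlap. Depth was low this far from the 3′ end: the median coverage of T13 rows was 73.5, 291 and 39.5 reads in CMC replicates 1 to 3, against 1345.5, 840.5 and 2308 reads in BEU replicates 1 to 3. tRNA-Asp-GTC-4-1 was just under the minimum rise, with 9.43, 6.13 and 13.3% in the CMC libraries and a rise of 9.36 ± 2.08 points, and was not called.

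At position 35, 5 of 27 T rows were called, and all 5 were tRNA-Tyr-GTA. tRNA-Tyr-GTA-2-1 stopped at 4.61, 5.89 and 5.42% in the BEU libraries and 55.1, 47.5 and 46.2% in the CMC libraries. tRNA-Tyr-GTA-5-1 stopped at 0.319, 0.475 and 0.341% in the BEU libraries and 13.5, 5.26 and 13.04% in the CMC libraries, a rise of 10.2 points, close to the minimum. Both had CMC libraries above all BEU libraries. The other 22 T35 rows, in Asn, Asp, Gln, Glu, His and Lys tRNAs, held no called row.

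In the anticodon stem, the region of PUS1, 52 of 60 rows were called at position 27 and 47 of 86 at position 28 (36 of 42 and 33 of 56 below the ceiling). Mean stop rates at position 27 were 2.15, 2.52 and 1.76% in the BEU libraries and 28.96, 28.4 and 29.9% in the CMC libraries. At position 28 they were 1.79, 1.68 and 1.45% and 14.7, 15.2 and 16.4%. The CMC libraries agreed to within 2 points at both positions and did not approach the BEU libraries.

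Neighbouring bases went with the call at position 28. After T27, 29 of 33 rows at T28 were called, after A27 6 of 8, and after C27 12 of 45 (median rise 1.57 points). Before T29, all 17 rows at T28 were called, all of them tRNA-Cys-GCA. These 17 rows are also among the 33 after T27, so the counts for T27 and T29 rest partly on the same tRNAs. Before G29 24 of 39 were called, and before C29 3 of 27. Where both 27 and 28 were T and covered, in 31 tRNAs, 25 were called at both, 4 at 27 alone and 2 at 28 alone. T27 followed by another base was called in 23 of 29 rows.

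The largest T27 rise was in tRNA-Trp-CCA-6-1, with 6.13, 7.83 and 5.26% in the BEU libraries and 72.97, 72.7 and 72% in the CMC libraries. Its 3 CMC libraries differed by less than 1 point. Yet the 6 tRNA-Trp-CCA species ranged from a rise of 6.75 to 66.2 points at position 27, and 3 were called. tRNA-Trp-CCA-2-1 had 9.35, 7.49 and 9.79% in the CMC libraries and 0.684, 0.453 and 0.597% in the BEU libraries, and missed the minimum rise with an adjusted p of 0.000199 (edgeR's quasi-likelihood test). tRNA-Ile-AAT-3-1 stopped at 7.87, 7.53 and 7.99% in the BEU libraries and 68.6, 72.2 and 70.4% in the CMC libraries at position 27, and tRNA-Val-AAC-5-1 at 6.44, 6.89 and 8% in the BEU libraries and 69.3, 70.4 and 64.3% in the CMC libraries. No T28 row was called for Ala (5 rows), Gly (6), Pro (4), Val (9) or initiator Met (3), and 1 of 10 for Leu.

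Positions 34 and 36, the outer bases of the anticodon, had 0 of 24 and 1 of 38 called T rows in edgeR's test; 5 of the 24 had an unadjusted p under 0.05. The exception was T36 of tRNA-Arg-TCT-1-1, with 2.29, 2.59 and 2.75% in the BEU libraries and 54.3, 41.3 and 23.8% in the CMC libraries. The CMC libraries lay above the BEU libraries but spread widely, and the rise was 37.3 ± 8.85 points (edgeR's quasi-likelihood test, adjusted p = 0.000948). This tRNA, printed above, held 6 called T rows, at positions 28, 36, 39, 40, 54 and 55.

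At positions 38 and 39, where PUS3 is known to act, 19 of 21 and 58 of 78 T rows were called (13 of 13 and 37 of 50 below the ceiling). Mean stop rates at position 38 were 1.77, 1.91 and 1.77% in the BEU libraries and 40.7, 40.9 and 41.7% in the CMC libraries. Position 39 had 1.04, 1.13 and 0.764% against 21.4, 22.3 and 23.4%. Position 38 had the highest mean CMC stop rate of the 10 positions plotted, and both positions had no overlap between groups.

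At position 38 all 9 Ala and all 4 Pro rows and 6 of 7 Leu rows were called. tRNA-Ala-AGC-6-1 stopped at 2.51, 3.60 and 3.43% in the BEU libraries and 69.8, 69.5 and 71.04% in the CMC libraries. The 3 CMC libraries differed by less than 2 points. The uncalled Leu row, tRNA-Leu-CAG-3-1, had 50.8, 59.2 and 58.1% in the CMC libraries and 2.62, 2.89 and 0.0125% in the BEU libraries. Its groups did not overlap, and it missed the threshold with an adjusted p of 0.0501 (edgeR's quasi-likelihood test). This row was not below the coverage ceiling, and BEU replicate 3 lay far under the other BEU libraries. The uncalled row of tRNA-Gly-CCC-1-1 had 9.55, 7.39 and 6.02% with CMC.

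At position 39 all 11 Leu, all 11 Ser and all 3 elongator Met rows were called, and 6 of 7 Gln rows. In contrast 5 of 15 tRNA-Cys-GCA rows were called, with a median rise of 2.11 points and rises from 1.08 to 13.3. tRNA-Phe-GAA-1-1 and tRNA-Phe-GAA-2-1 rose by 40.6 and 40.6 points without overlap between groups, and missed the threshold with adjusted p-values of 0.0526 and 0.0534 (edgeR's quasi-likelihood test). Their BEU libraries stood at 2.91, 3.13 and 0.05002% in the first, with replicate 3 at the ceiling.

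**Figure D5:**
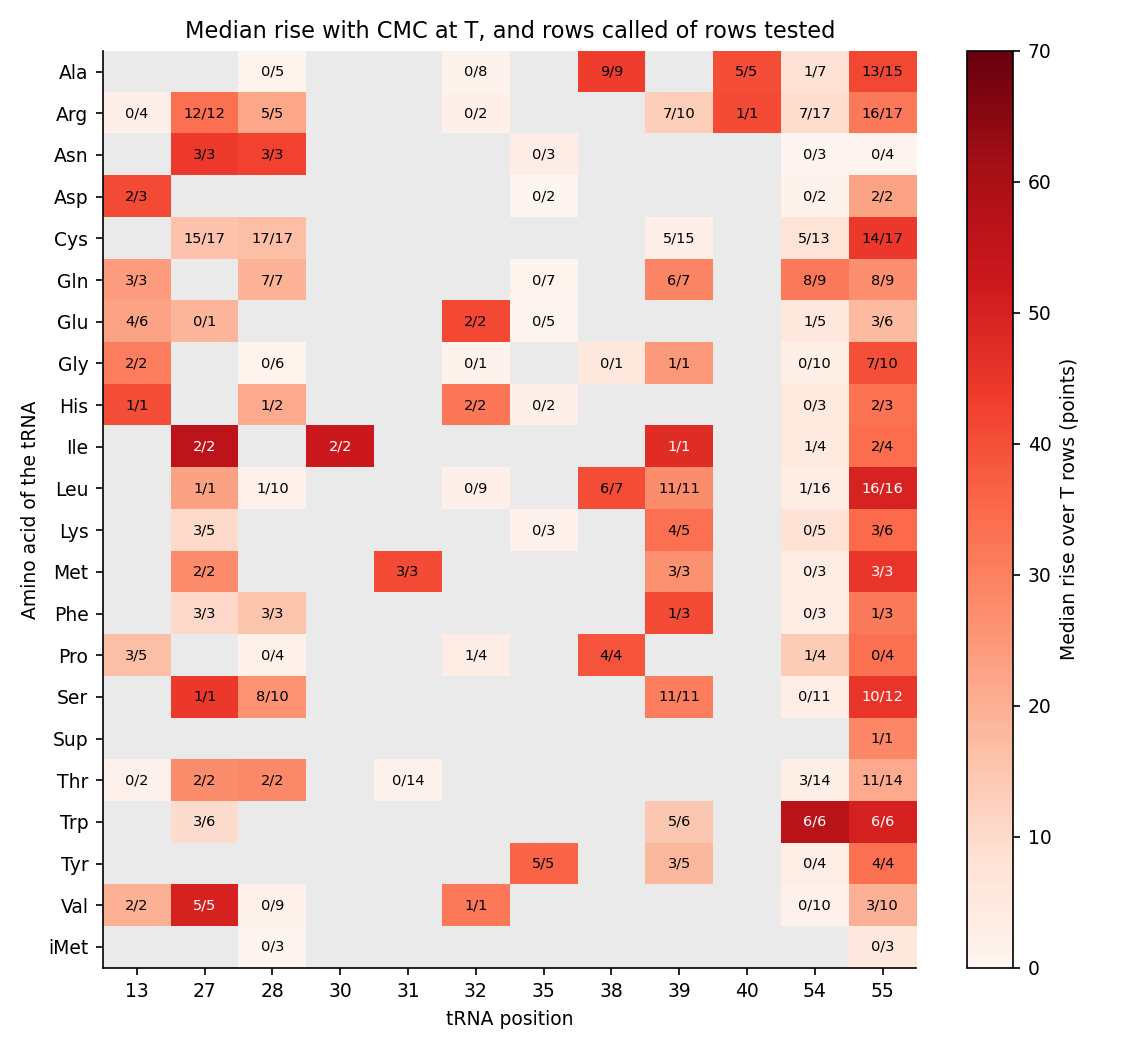
Median rise with CMC (colour, points, scale from 0 to 70) at T rows of 12 positions (horizontal axis) for each amino acid's tRNAs (vertical axis), with the number of rows called of rows tested printed in each cell; grey cells have no tested T row. Position 35 is called in 5 of 5 Tyr rows, position 40 in 5 of 5 Ala rows, and position 54 in 6 of 6 Trp and 8 of 9 Gln rows.

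A few positions of the anticodon arm were called in tRNAs of 1 or a few amino acids. At position 30 both T rows were called, in tRNA-Ile-AAT. tRNA-Ile-AAT-3-1 had 5.18, 5.46 and 5.41% in the BEU libraries and 59.3, 58.9 and 60% in the CMC libraries there, with CMC libraries within 2 points of each other and a rise of 54.1 ± 0.338 points (edgeR's quasi-likelihood test, adjusted p = 7.5e-05). At position 31, 3 of 17 rows were called, all 3 elongator tRNA-Met-CAT, while none of 14 Thr rows was.

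At position 32, 6 of 29 rows were called: Glu (2 of 2), His (2 of 2), Val (1 of 1) and Pro (1 of 4). tRNA-Val-TAC-1-1 had 1.32, 0.991 and 1.15% in the BEU libraries and 34.3, 32.7 and 31.5% in the CMC libraries, and tRNA-Glu-TTC-2-1 0.997, 1.19 and 0.940% in the BEU libraries and 46.1, 40.4 and 40.9% in the CMC libraries. In both the groups lay far apart. None of 9 Leu or 8 Ala rows at this position was called. At position 40 all 6 T rows were called, 5 of them Ala. tRNA-Ala-CGC-1-1 stopped at 5.10, 5.37 and 4.09% in the BEU libraries and 58.6, 57.7 and 60.2% in the CMC libraries, with CMC libraries within 3 points, and tRNA-Arg-TCT-1-1 at 1.19, 1.67 and 1.22% in the BEU libraries and 38.5, 40.5 and 47.2% in the CMC libraries. Which enzyme acts at positions 30, 31, 32 and 40 was not tested.

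At bases that were given no position number, 28 called T rows lay in the variable region (19), the D loop (8) and tRNA-SeC (1). In the variable region most belonged to the long arms of Leu and Ser tRNAs. Base 47 from the 5′ end of tRNA-Leu-CAA-1-1 had 5.18, 4.31 and 5.88% in the BEU libraries and 43.6, 54.6 and 59.5% in the CMC libraries, with no overlap and the largest rise of the region, 47.4 ± 4.73 points. Base 46 of tRNA-Ser-GCT-3-1 had 2.07, 1.63 and 1.43% in the BEU libraries and 30.5, 30.5 and 30.4% in the CMC libraries, 3 CMC libraries within 1 point of each other. In tRNA-Leu-TAG-3-1, printed above, 2 neighbouring T were called: base 48 with 23, 16.1 and 15.2% and base 49 with 41.04, 41.6 and 38.7% in the CMC libraries.

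Base 47 of tRNA-Phe-GAA-1-1 had 0.0254, 0.02595 and 0.0375% in the BEU libraries and 19.4, 19.98 and 23.1% in the CMC libraries. In tRNA-SeC-TCA-1-1, the selenocysteine tRNA, whose arms differ in length from all others and were not numbered, base 68 had 0.743, 0.751 and 0.201% in the BEU libraries and 33, 24.99 and 29.7% in the CMC libraries. Both were clear of their BEU libraries, although both tRNAs came to the ceiling in some library. In the T stem 5 of 55 rows at position 50 and 3 of 22 at position 51 were called. At position 50 tRNA-Arg-ACG-3-1 had 0.440, 4.67 and 0.858% in the BEU libraries and 44.6, 38.8 and 40% in the CMC libraries and tRNA-Lys-CTT-2-1 0.0251, 0.0626 and 0.201% in the BEU libraries and 24.3, 21.3 and 22.6% in the CMC libraries, with no overlap in either.

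The D loop is known to carry dihydrouridine, and its T rows stopped reverse transcriptase without CMC. Of 218 D-loop T rows, 165 stopped at 10% or more in the BEU mean, and the median was 22.02% in BEU and 22.3% with CMC. By the call rule 8 of them were called. Base 21 of tRNA-Leu-AAG-2-1 rose most, from 13.3, 12.2 and 11.5% in the BEU libraries to 32.6, 34.3 and 41.4% with CMC. The groups did not overlap, and the rise was 23.8 ± 2.74 points. Base 19 of tRNA-Ala-CGC-1-1 went the other way, from 70.04, 73.9 and 71.7% to 31.03, 30.4 and 40%, the largest fall among T rows that passed the mirrored rule.

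Over all bases, 617 of 10599 rows (5.82%) stopped at 10% or more in the BEU mean: 256 T, 185 G, 101 C and 75 A rows. These stops occurred without CMC, after the AlkB treatment. G37 of tRNA-Phe-GAA-2-1, known to carry a bulky wyosine-type base, stopped at 95.3, 95.4 and 94.1% in the BEU libraries and 92.2, 91.6 and 91.5% in the CMC libraries. The CMC mean minus the BEU mean was -3.13 points. A37 of tRNA-Lys-TTT-2-1, a base known to be hypermodified next to the anticodon, had 93.8, 93.7 and 93.5% in the BEU libraries and 94.7, 92.1 and 88.5% in the CMC libraries, with overlapping groups. At position 26, often dimethylated guanosine, 33 of 73 G rows reached 10% without CMC, up to 91.6%. Called T rows were rarely among these: 5 of 413 had a mean BEU rate over 10%.

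The 29 called A, C and G rows included 11 directly 5′ of a called T and 2 directly 3′ of one; the other 16 were next to no called T. G59 of tRNA-Tyr-GTA-5-1 had the largest rise, with 11.6, 19.2 and 8.32% in the BEU libraries and 72.8, 58.2 and 68.9% in the CMC libraries, and the T beside it, at position 60, also rose, with 10.4, 18.3 and 8.98% in the BEU libraries and 44.1, 38.2 and 48.3% in the CMC libraries. Both rows were free of overlap, on BEU rates that were already raised. At position 27, 5 tRNA-Val species with C27 were called, among them tRNA-Val-CAC-1-1 with 7.63, 14.7 and 7.49% in the BEU libraries and 49.4, 37.4 and 51.2% in the CMC libraries, although its sequence has no T there. In 5 other tRNA-Val species position 27 was T, and all 5 were called. C50 of tRNA-Arg-ACG-1-1 had 0.441, 5.58 and 0.885% in the BEU libraries and 32.3, 27.8 and 28.6% in the CMC libraries. Its rise was 27.3 points, under the 39.2 points at T50 of tRNA-Arg-ACG-3-1, whose rates are given above. Thus 6 of the 25 called A, C and G rows with a numbered position had a called T at the same position in another tRNA of the same anticodon; how reads were divided between such near-identical tRNAs was not tested.

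In tRNA-Leu, A31 was called in 4 species, tRNA-Leu-TAG-1-1, tRNA-Leu-TAG-2-1, tRNA-Leu-TAG-3-1 and tRNA-Leu-AAG-3-1, with rises of 13.5 to 22.3 points. No T32 row of Leu was called. G37 was called in 4 tRNA-Leu-CAG species, just 5′ of T38. In tRNA-Leu-CAG-4-1 it had 4.87, 7.09 and 4.36% in the BEU libraries and 38.7, 28.4 and 38.5% in the CMC libraries, against 20.6, 19.02 and 26.95% at T38 in the CMC libraries. The CMC libraries lay above BEU in both.

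Per tRNA, 155 of 191 had at least 1 called T row, with a median of 2 over those with at least 5 T rows tested. The counts were 28 tRNAs with 1, 46 with 2, 45 with 3, 26 with 4, 6 with 5 and 4 with 6 called rows. The 4 with 6 were tRNA-Gln-CTG-1-1, tRNA-Arg-TCT-1-1, tRNA-Cys-GCA-2-1 and tRNA-Cys-GCA-5-1. The commonest sets of called positions, among the 7 positions above, were 55 alone (25 tRNAs), 39 with 55 (15), 38 with 55 (10), and 27, 28 and 55 (10). These sets hold called rows only, and the other positions may have had no T or too little coverage. tRNA-Lys-CTT-1-1, for example, counts as 55 alone with 3 T rows tested. In tRNA-Gln-CTG-1-1 the sites ran from position 13 through 2 D-loop bases, 19 and 20 from the 5′ end, and 28 to 54 and 55. At its T54 the rates were 3.23, 3.33 and 2.38% in the BEU libraries and 79.4, 72.7 and 76.9% in the CMC libraries, and at T55 1.32, 2.03 and 1.43% in the BEU libraries and 45.3, 43.02 and 51.8% in the CMC libraries, both free of overlap, with 54 the higher of the pair.

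Of 170 tRNAs with at least 5 T rows tested, 22 had none called. They included the 3 initiator tRNAs, 3 tRNA-Gly-GCC, tRNA-Thr-AGT-5-1, tRNA-Thr-AGT-6-1 and tRNA-Thr-AGT-7-1, and tRNA-Asp-GTC-4-1. In tRNA-Gly-GCC-2-1, with 16 T rows and 8 identical entries, T55 had 37.2, 1.42 and 36.5% in the CMC libraries and 0.840, 0.915 and 0.739% in the BEU libraries. Replicate 2 was again the one at the BEU level.

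tRNAs that share an anticodon did not always share a call. Of 111 sets of at least 3 such tRNAs with T at the same position, all were called in 40, none in 33 and some in 38. A set with some called can hold uncalled rows that rose as much and missed the adjusted p. At T39 of tRNA-Phe-GAA 1 of 3 rows was called, with rises of 31.7 to 40.6 points. At T55 of tRNA-Lys-CTT 2 of 4 were called, with rises of 33.8 to 52.8 points. All 17 covered T28 rows of tRNA-Cys-GCA species were called, with rises of 13.9 to 34.8 points. Of their covered T55 rows, also 17 but not all in the same species, 14 were called, with rises of 0.378 to 69.8 points over the 17. The 4 tRNA-Arg-TCG species were close to each other at T27, with rises of 45.7 to 47.1 points, and further apart at T55, with 17.6 to 34.4 points. At T54 the 4 tRNA-Gln-TTG species rose by 31.7 to 77.9 points, where the median SE of a rise was 1.78 points. Reads of such tRNAs can be hard to tell apart, so their rows are not independent.

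Near the minimum rise, base 21 of tRNA-Leu-CAG-1-1 and tRNA-Leu-CAG-2-1 was called at 10.2 and 10.2 points. T39 of tRNA-Arg-TCG-4-1 and base 49 of tRNA-Leu-TAG-1-1, at 9.92 and 9.86 points, were not.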

How the data were processed

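The members, position groups and named sites were chosen with earlier results of these data known. Per the file headers, the 3 deposited tables of young cells pair a BEU and a CMC library each, and give for every base of 404 tRNA entries the coverage, a count of reads, the stop reads, another whole-number count, and the stop rate, a percent computed by the authors. The deposited stop rate equalled 100 times stop reads over coverage in all 339624 values checked. Bowtie2 2.3.5, Bowtie and mm10 appear in the submitters' processing notes without roles. How read ends were turned into stops is not given in those sources. Both counts are never under 1 in the tables, so subtracting 1 was an alternative. No shift of rows was applied. The row before the first base, which holds full-length reads, was left out.

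Libraries were grouped by their titles. Positions were numbered from the 5′ end to 16, from the anticodon for 22 to 44 (370 of 404 entries placed) and from the T loop for 48 on (387 placed); other bases are counted from the 5′ end. No genome was given and the entry names matched no tRNA gene of the RefSeq table, so no genome coordinates are printed. Rows with coverage of at least 20 in all 6 libraries entered edgeR 4.0.16 (R 4.3.3), with glmQLFit and glmQLFTest fitted to paired counts of stops and read-through, a coefficient per library, 1 log-odds coefficient for CMC, equal library sizes and no dispersion trend, with Benjamini-Hochberg adjustment over all rows. Calls needed an adjusted p-value under 0.05, a rise of at least 10 points and no overlap between groups; p-values and rises were computed here from the deposited counts. Errors are SDs over 3 libraries, or SEs of the difference of 2 means. The test was also run on simulated stops whose spread between libraries was estimated from the real replicates. This spread replaced a first one, a beta-binomial with a constant parameter, under which none of the altered rows was called. The deposited counts had been fitted by then, so the simulation is not used as support for the calls. Alternatives were other coverage minimums, DESeq2 1.42.0, limma 3.58.1 on log2 odds with 0.5 added, the replicate number as a block, other call rules, every entry kept, rows below the ceiling, and each library left out.

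Sites were named by this rule: per amino acid and per position group the called T with the largest rise, and the best-covered one; all called T at 13, 34, 35, 36 and 50; the 10 called A, C or G rows with the largest rise; the 5 highest BEU rates per base; the uncalled T with the lowest p per position; and the tRNAs with most or no called T. Sites at 30, 31, 32, 40, the variable region, at initiator, Pro, Asn, Gly and Phe tRNAs, and other tRNAs shown for contrast were chosen after their values were seen. Some named sites are not reported here.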

Additional observations from a re-analysis of the deposited data

How the results depend on the processing

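The count of 413 called T rows stayed within 1.5 times of its value except with every entry kept and with rows below the ceiling alone; the count of 29 other rows moved more often. DESeq2 called 433 T rows, limma on log odds 420, a dispersion trend 427 and a fit over all 12 libraries 423; DESeq2, limma and the trend kept all 413, and the 12-library fit kept 411. Residuals of BEU and CMC libraries with the same replicate number correlated at 0.0314, -0.121 and 0.00833, and those with different numbers at -0.153 to 0.189. With 3 libraries per group this cannot show whether the libraries were paired. With the number as a block 393 T rows and 17 other rows were called, so the second count moved. Leaving out 1 library gave 367 to 446 T rows and 18 to 42 other rows; the 18 came without BEU replicate 1 and, separately, without CMC replicate 1. Over the position groups the ranges were 14 to 19 at 13, 86 to 101 at 27 and 28, 4 to 5 at 35, 68 to 80 at 38 and 39, 25 to 43 at 54, 121 to 142 at 55, and 1 throughout at 34 and 36. The coverage minimum also changes the rows tested. Requiring coverage of 50 left 58 of 90 tested rows at 27 and 28, 8 of 10 at 13 and 0 of 21 at 35. It left 0 of 51 at 34 and 36, and 15 of 6330 other rows. A minimum of 10 gave 2 of 72 at 34 and 36. No minimum gave 29 of 54 at 13, 6 of 94 at 34 and 36, and 103 of 10883 other rows. A minimum rise of 5 points gave 61 rows at 54 and 64 other rows, and one of 20 points gave 55 at 27 and 28, 3 at 35 and 13 other rows. Rows below the ceiling alone gave 261 T rows, 50 at 38 and 39, 21 at 54 and 65 at 55, from fewer rows tested. Counting every entry gave 873 T rows, 76 at 13, 231 at 27 and 28, 10 at 35, 146 at 38 and 39, 244 at 55 and 61 other rows, since identical entries are then counted repeatedly. No result changed direction. Depth limits the 5′ part of the tRNAs in CMC replicates 1 and 3, and the ceiling limits the 3′ part of abundant tRNAs; within 14 rows of the 3′ end stops are hardly recorded.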

Other observations

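The 21 rows that passed the mirrored rule, lower with CMC, lay at various positions, and several repeated 1 base in tRNAs that share an anticodon. Base 17 from the 5′ end, a G of the D loop, was lower in 4 tRNA-Ser-GCT species: in tRNA-Ser-GCT-3-1 it stopped at 56.1, 51.7 and 55.5% in the BEU libraries and at 29.3, 26.4 and 14.3% in the CMC libraries, without overlap. C34, the first anticodon base, was lower in 2 tRNA-Arg-CCT and 2 tRNA-Gln-CTG species. In tRNA-Gln-CTG-5-1 it stopped at 27.3, 27.2 and 26.5% and at 10.9, 13.4 and 11.3%. C35 was lower in 2 tRNA-Trp-CCA species. G7 of tRNA-Arg-CCT-4-1 had the largest fall, from 45.7, 45.5 and 38.7% to 8.70, 1.72 and 5%, a difference of -38.2 ± 3.06 points (SE, n = 3 and 3). These rows were chosen after their values were seen, and a cause was not tested.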
